A study of Homo sapiens with 4 samples.

Results

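Footprints that span splice junctions were examined for 35 genes of the Fanconi anemia and homologous recombination pathways, chosen by gene name. Of these, 34 had junction reads in the deposited tables. FANCF, a core complex subunit, has no intron in the annotation and so could not be measured. The tables list junctions of 35316 gene identifiers, and 10956 genes had the 20 reads needed for a comparison between the cell lines.

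The study profiled ribosomes in 2 samples of K562, an established leukemia line with erythroid traits, and in 2 samples of HepG2, an established liver tumor line with hepatocyte traits. No treatment or genotype change is given in the labels for any sample. Both lines were lysed with cycloheximide, which holds elongating ribosomes in place, at 100 µg/ml. The counts of the 2 samples of a line were deposited as a single table, so no value here has a replicate check, and every interval covers counting error only.

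The K562 table held 7487508 uniquely mapped junction reads, which were 74.0% of its mapped reads, against 9927809 (82.7%) in HepG2. After TMM scaling, which corrects for the share of reads taken by a few very abundant genes, the effective depths were 8336980 reads in K562 and 8298281 in HepG2. Because these depths are nearly equal, raw reads of a gene can be set side by side between the lines. The erythroid markers GATA1, TAL1 and KLF1 were all higher in K562, and the 4 hepatocyte markers ALB, APOB, HNF4A and FGB were all higher in HepG2. MTAP, which lies in a stretch known to be deleted in K562, had 0 K562 reads and 249 HepG2 reads.

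The Fanconi anemia pathway repairs crosslinks that join both strands of DNA. A core complex with the ubiquitin ligase subunit FANCL and the conjugating enzyme UBE2T attaches ubiquitin to FANCD2 and FANCI, which then clamp the DNA and recruit nucleases. The resulting break is repaired by homologous recombination, in which the ends are trimmed, BRCA2 helps the broken strand pair with an intact copy, and helicases and nucleases take the joined molecules apart, while the kinases ATM and ATR signal the damage. Most of these genes are transcribed mainly in dividing cells, and both lines divide in culture.

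Before the read totals, sequence is shown around the RAD51AP1 and FANCL sites that passed the share rule given further on. At these sites the lines differ in which messenger was read and not only in how many reads a gene had. All sequences are from GENCODE release 29 transcripts on GRCh38, written 5′ to 3′. Across a junction, the last 20 bases of the upstream exon are in lower case and the first 20 bases of the downstream exon in capitals. The first 4 belong to RAD51AP1, on the plus strand of chromosome 12, and cover the main routes through and past its exon 8. In order, their introns are chr12:4553148-4556352, chr12:4556503-4558856, chr12:4553148-4558856 and chr12:4553090-4558856.
RAD51AP1 exon 7 to exon 8: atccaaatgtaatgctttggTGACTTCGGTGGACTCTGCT
RAD51AP1 exon 8 to exon 9: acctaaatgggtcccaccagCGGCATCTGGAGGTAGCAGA
RAD51AP1 exon 7 to exon 9: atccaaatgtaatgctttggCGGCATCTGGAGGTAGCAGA
RAD51AP1 inner site of exon 7 to exon 9: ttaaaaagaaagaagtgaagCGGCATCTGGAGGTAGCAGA
Exon 8 itself, at chr12:4556353-4556502, is given next, since K562 footprints mostly passed it by.
RAD51AP1 exon 8: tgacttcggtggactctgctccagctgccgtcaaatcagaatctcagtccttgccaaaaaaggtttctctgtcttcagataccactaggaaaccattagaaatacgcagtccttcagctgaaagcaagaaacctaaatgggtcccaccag
The last is a 45-base exon of FANCL, on the minus strand at chr2:58194229-58194273, whose entry junction took a larger share of reads in K562.
FANCL 45-base exon: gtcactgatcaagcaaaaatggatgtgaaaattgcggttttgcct

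RAD51AP1 (ENSG00000111247, chromosome 12, 4538798 to 4560048), which assists strand invasion in homologous recombination, was read past exon 8 in K562 and through exon 8 in HepG2. At the donor that ends exon 7, the junction to exon 8 took 1 of 21 K562 reads (4.76%, interval 0.120 to 23.8%) and 26 of 28 HepG2 reads (92.9%, 76.5 to 99.1%). The junction from the same donor straight to exon 9 took 16 of 21 K562 reads (76.2%, 52.8 to 91.8%) and 1 of 28 HepG2 reads (3.57%, 0.0904 to 18.3%). Another junction, to an acceptor inside exon 8, took the remaining 4 K562 reads (19.0%, 5.45 to 41.9%) and 1 HepG2 read (3.57%). The 2 lines thus used opposite routes at this site, each in most of its reads.

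The acceptor of exon 9 showed the same split from the other side. The junction from exon 8 took 2 of 63 K562 reads and 13 of 17 HepG2 reads. Another route, from a donor inside exon 7 to exon 9, took 44 of 63 K562 reads (69.8%, 57.0 to 80.8%) and 2 of 17 HepG2 reads (11.8%, 1.46 to 36.4%). In all, 60 of 63 reads into exon 9 came past exon 8 in K562 (95.2%, 86.7 to 99%), against 3 of 17 in HepG2 (17.6%, 3.80 to 43.4%). A longer form of exon 8 supplied 1 read into exon 9 in each line. With 17 reads in HepG2, this acceptor was under the minimum of 20 reads per table, and it was past the rule with a minimum of 10 reads or with all mapped reads.

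Exon 8 has 150 bases, which are 50 codons, so its removal keeps the reading frame and leaves 285 of 335 codons. The exon 7 to exon 9 junction is annotated only in a transcript without a coding sequence. The inner site with exon 8 left out removes 208 bases, which shifts the frame, and the annotated reading frame of that form has 235 codons, the last 14 of them read from exon 9 in another frame. The 45 codons that exon 9 adds in the full-length form are thus kept when exon 8 alone is skipped and are lost with the inner site.

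**Figure D1:**
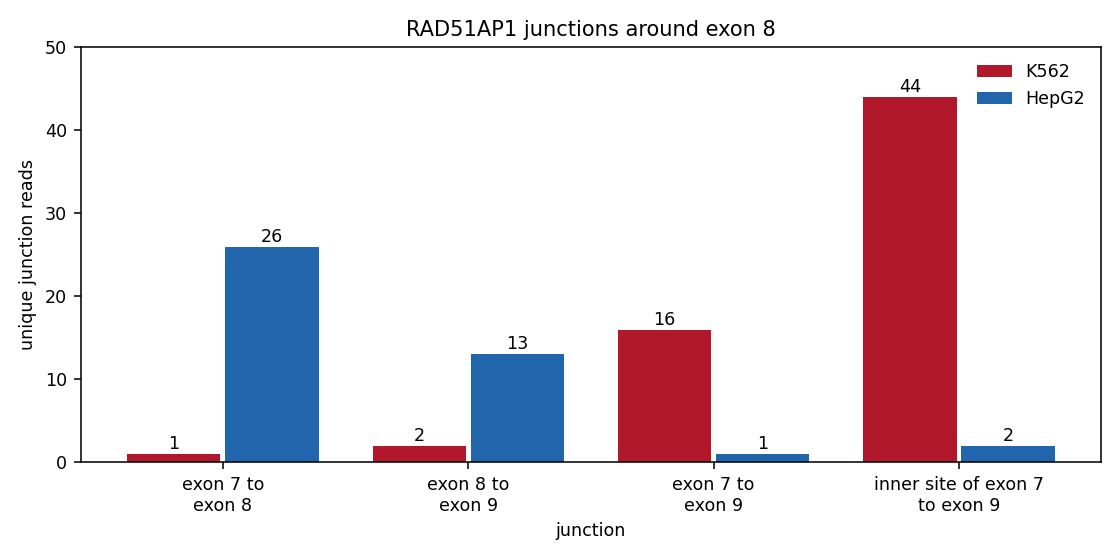
Unique junction reads (y axis) of RAD51AP1 at 4 junctions around exon 8 (x axis), with K562 in red left of HepG2 in blue. The 2 plotted junctions that touch exon 8 have counts of 1 and 2 in K562, against 26 and 13 in HepG2. The 2 that pass it have 16 and 44 in K562, against 1 and 2 in HepG2. Not plotted are a junction to an acceptor inside exon 8 (4 K562 reads, 1 HepG2 read) and one from a longer exon 8 (1 read in each line).

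The shares of other RAD51AP1 splice sites lay closer together. An optional exon of 51 bases (17 codons) before exon 4 supplied 30 of 177 K562 reads at the exon 4 acceptor (16.9%, 11.7 to 23.3%) and 3 of 80 HepG2 reads (3.75%, 0.780 to 10.6%), a difference of 13.2 percentage points. The junction into the same exon did not show it, with 7 of 146 K562 reads at the exon 3 donor (4.79%) and 6 of 78 HepG2 reads (7.69%). The direct junction between exons 3 and 4 held 93.8% of the reads at that donor in K562 and 91.0% in HepG2, shares that overlap within counting error.

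FANCL (ENSG00000115392, chromosome 2, 58159243 to 58241372) had almost the same total in both lines but differed at the optional exon printed above. Its 45 bases add 15 codons in 1 annotated coding transcript. At the donor before it, the junction into the exon took 18 of 57 K562 reads (31.6%, 19.9 to 45.2%) and 2 of 38 HepG2 reads (5.26%, 0.644 to 17.7%). The junction that leaves the exon out took the other 39 K562 reads (68.4%) and 36 HepG2 reads (94.7%). Leaving the exon was read less often, with 5 of 45 K562 reads at the next acceptor (11.1%, 3.71 to 24.1%) and 1 of 43 HepG2 reads (2.33%, 0.0589 to 12.3%), intervals that overlap. At that acceptor the junction that leaves the exon out took 86.7% of K562 reads and 83.7% of HepG2 reads. The entry and exit sides of the exon thus gave unequal shares, and the difference between lines was counted at the entry side only.

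These sites came from a comparison of every splice site with alternative junctions listed and 20 or more unique reads in each table. A junction was counted when its share of the site differed by 20 percentage points or more and the exact 95% intervals did not overlap. Among members, 6 of 167 junctions were counted, at 3 sites in RAD51AP1, FANCL and FANCI, beside 2.63% of all 35814 junctions. The 167 junctions fall at 82 sites in 18 members, so the other members had no site with both alternative junctions and enough reads.

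The FANCI site lies in the 5′ leader and was not stable to the read column. At the acceptor of the first coding exon, the junction from the first leader exon took 11 of 55 unique K562 reads and 19 of 30 unique HepG2 reads (63.3%). A later leader exon took 23 of 55 (41.8%) in K562, against 3 of 30 in HepG2. With all mapped reads the site held 601 reads in K562 and 171 in HepG2, and the first leader exon took 35.3% in K562 and 32.2% in HepG2. Most reads at this acceptor were therefore not uniquely placed, and the difference stands only in the small unique fraction.

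Smaller differences at a read depth that could show them were found in CHEK1 and RAD51C. The sequence across each skipped exon is given with its intron, chr11:125626834-125629231 for CHEK1 and chr17:58695190-58703195 for RAD51C, both on the plus strand, with the downstream exon in capitals.
CHEK1 skip: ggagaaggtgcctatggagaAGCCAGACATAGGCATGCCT
RAD51C skip: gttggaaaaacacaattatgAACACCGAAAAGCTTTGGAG
In CHEK1, the checkpoint kinase that acts after ATR, the skip took 53 of 258 K562 reads at the downstream acceptor (20.5%, 15.8 to 26.0%) and 18 of 215 HepG2 reads (8.37%, 5.04 to 12.9%). At the upstream donor the same junction took 53 of 288 K562 reads (18.4%) and 18 of 135 HepG2 reads (13.3%), with overlapping intervals. In RAD51C, which acts in the strand exchange step, the skip took 16 of 171 K562 reads at the acceptor (9.36%, 5.44 to 14.7%) and 1 of 137 HepG2 reads (0.730%, 0.0185 to 4.0%). At its upstream donor the junction took 16 of 76 K562 reads (21.1%, 12.5 to 31.9%) and 1 of 36 HepG2 reads (2.78%, 0.0703 to 14.5%), again with overlapping intervals. The skipped exons have 224 bases in CHEK1 and 167 in RAD51C, neither a multiple of 3, and the RAD51C junction is annotated only in transcripts classed as subject to nonsense-mediated decay.

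In total reads, FANCI and BLM were the 2 of 34 members higher in K562, and ATM was the 1 higher in HepG2. A gene was counted when the whole exact 95% interval of its ratio lay past 2-fold. The same rule counted 16.8% of all genes compared on the K562 side and 21.9% on the HepG2 side. In either direction the share was 8.82% of the members, beside 38.7% of all genes. Their intervals lay wholly within 2-fold for 22 of 34 members (64.7%), beside 36.3% of all genes. The median log2 ratio of K562 to HepG2 was 0.24 over the members and -0.01 over all genes, and 21 members lay above a ratio of 1 and 13 below it. Scaling by total reads moved the median of all genes to 0.41, and FANCA, FANCC, FANCG, FANCL, FANCM, BRIP1 and XRCC3 then lay above 1, so their directions are given relative to the TMM scale. Reads do not separate the amount of a messenger from the number of ribosomes on each copy.

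**Figure D2:**
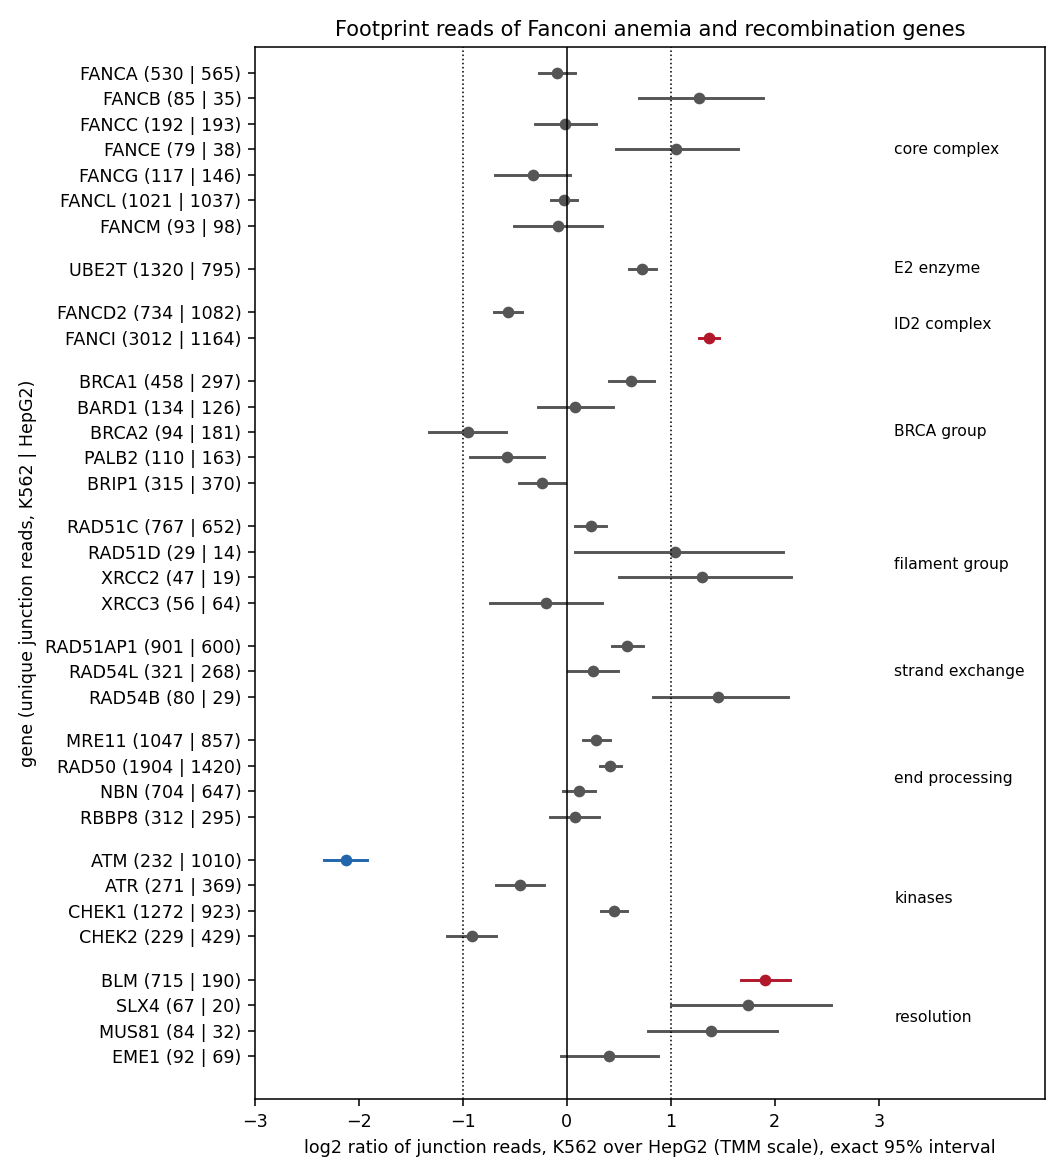
Log2 ratio of unique junction reads, K562 over HepG2 on the TMM scale (x axis), for the 34 measured members grouped by role, with reads in K562 and HepG2 beside each name. Points are ratios, bars exact 95% intervals, dotted lines the 2-fold limits; red marks FANCI and BLM (higher in K562) and blue marks ATM (higher in HepG2).

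The core complex, which carries the ligase activity, differed little in the read totals of its most-read subunits. FANCA had 530 K562 reads and 565 HepG2 reads, a ratio of 0.934 (0.828 to 1.05), and FANCC, an adaptor subunit, had 192 K562 reads and 193 HepG2 reads. FANCL had 1021 K562 reads and 1037 HepG2 reads, a ratio of 0.980 (0.897 to 1.07). FANCG, which binds FANCA, had 117 K562 reads and 146 HepG2 reads, and FANCM, the translocase that brings the complex to DNA, had 93 K562 reads and 98 HepG2 reads. All 5 intervals include 1, so the differences were within counting error, and each of the 5 lay above 1 when scaled by total reads.

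The other core subunits were read less and lay above 1. FANCB, the X-linked partner of FANCL, had 85 K562 reads and 35 HepG2 reads, a ratio of 2.42 (1.61 to 3.69). FANCE, which bridges the complex to FANCD2, had 79 K562 reads and 38 HepG2 reads, a ratio of 2.07 (1.39 to 3.13). Both intervals exclude 1 but reach below 2-fold, so neither was counted. In FANCB, 1 junction held 47 of the 75 K562 coding reads. Of its 3 coding junctions with 10 or more reads over both lines, 1 had more in K562 and 2 had more in HepG2. The FANCB ratio was 0.933 (0.430 to 2.02) over the first part of its coding junctions and 3.73 (2.12 to 6.94) over the second part.

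UBE2T, the conjugating enzyme that works with FANCL, had 1320 K562 reads and 795 HepG2 reads, a ratio of 1.65 (1.51 to 1.81). It had the highest level per junction of all members in both lines, as shown further on. Its interval lies wholly between equality and the 2-fold limit.

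FANCI and FANCD2, the paired substrates of that enzyme, lay on opposite sides of 1. FANCI (ENSG00000140525, chromosome 15, 89243949 to 89317261) had 3012 K562 reads and 1164 HepG2 reads, a ratio of 2.58 (2.41 to 2.76). FANCD2 (ENSG00000144554, chromosome 3, 10026414 to 10101930) had 734 K562 reads and 1082 HepG2 reads, a ratio of 0.675 (0.614 to 0.742). FANCI was the most-read member in K562, and FANCD2 had fewer reads in K562 than in HepG2 without reaching the 2-fold limit.

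The opposite directions of the pair were spread along both messengers. Of 36 FANCI coding junctions, 34 had more reads in K562, while 31 of 42 FANCD2 junctions had more in HepG2, 6 had more in K562 and 5 were equal. Per coding junction, the FANCI level was 4.73 times that of FANCD2 in K562 and 1.22 times in HepG2. Some reads of both genes map to further places in the genome, so the uniquely mapped share over both tables was 81.2% for FANCI and 84.2% for FANCD2. With all mapped reads, FANCI had 3772 in K562 and 1374 in HepG2, and FANCD2 had 865 in K562 and 1293 in HepG2.

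The BRCA group held ratios on both sides of 1. BRCA1, a ligase and scaffold of repair, had 458 K562 reads and 297 HepG2 reads, a ratio of 1.53 (1.32 to 1.78), and its partner BARD1 had 134 K562 reads and 126 HepG2 reads. BRCA2, a mediator of strand exchange, had 94 K562 reads and 181 HepG2 reads, a ratio of 0.517 (0.399 to 0.667). PALB2, which joins BRCA1 to BRCA2, had 110 K562 reads and 163 HepG2 reads, a ratio of 0.672 (0.522 to 0.860). BRIP1, a helicase that binds BRCA1, had 315 K562 reads and 370 HepG2 reads, a ratio of 0.847 (0.726 to 0.987) that lay above 1 when scaled by total reads.

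None of these 5 passed the 2-fold rule, and the group median log2 ratio was -0.24. Of 25 BRCA2 coding junctions, 16 had more reads in HepG2, 6 had more in K562 and 3 were equal. The 5′ leader ran the other way. Of the BRCA2 K562 reads, 12 of 94 lay at a 5′ leader junction (12.8%, 6.77 to 21.2%), against 1 of 181 in HepG2 (0.552%, 0.0140 to 3.04%).

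RAD51C, RAD51D, XRCC2 and XRCC3 are related proteins that assist strand exchange, and RAD51C dominated their reads. RAD51C had 767 K562 reads and 652 HepG2 reads, a ratio of 1.17 (1.05 to 1.30). Its partner XRCC3 had 56 K562 reads and 64 HepG2 reads. XRCC2, with 47 reads in K562 and 19 in HepG2 over 2 coding junctions, had a ratio of 2.46 (1.42 to 4.44).

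RAD51D and XRCC2 act together in another complex, and both were sparsely read. RAD51D had 29 K562 reads and 14 HepG2 reads at junctions of that gene alone, a ratio of 2.06 (1.06 to 4.22). None of the 4 was counted, and their median log2 ratio was 0.64.

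The other genes of strand exchange had more reads in K562 in each case. RAD51AP1 had 901 K562 reads and 600 HepG2 reads, a ratio of 1.49 (1.35 to 1.66). RAD54L, a motor protein that remodels DNA during strand exchange, had 321 K562 reads and 268 HepG2 reads, a ratio of 1.19 (1.01 to 1.41). RAD54B, its relative, had 80 K562 reads and 29 HepG2 reads, a ratio of 2.75 (1.78 to 4.36), and 43 of the 80 reads in K562 and 8 of the 29 in HepG2 lay at 5′ leader junctions. None of RAD51AP1, RAD54L and RAD54B passed the rule.

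End processing genes had the narrowest range of ratios among the roles with 3 or more members, 1.05 to 1.33. MRE11, the nuclease of the complex that first trims breaks, had 1047 K562 reads and 857 HepG2 reads, a ratio of 1.22 (1.11 to 1.33). RAD50, its ATPase partner, had 1904 K562 reads and 1420 HepG2 reads, a ratio of 1.33 (1.25 to 1.43). NBN, the third subunit, had 704 K562 reads and 647 HepG2 reads, and RBBP8, which activates the nuclease, had 312 K562 reads and 295 HepG2 reads. Within the complex, MRE11 stood at 1.23 times the level of NBN per coding junction in K562 and 1.09 times in HepG2.

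The damage kinases included the largest difference among the members. ATM (ENSG00000149311, chromosome 11, 108222484 to 108369102), which responds to double-strand breaks, had 232 K562 reads and 1010 HepG2 reads, a ratio of 0.229 (0.197 to 0.264), which is 4.37-fold lower in K562. Its effector kinase CHEK2 had 229 K562 reads and 429 HepG2 reads, a ratio of 0.531 (0.451 to 0.625). ATR, which responds to stalled forks, had 271 K562 reads and 369 HepG2 reads, a ratio of 0.731 (0.622 to 0.858). CHEK1, the effector of ATR, had 1272 K562 reads and 923 HepG2 reads, a ratio of 1.37 (1.26 to 1.49).

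Of all genes compared, 15.6% had a ratio at or below that of ATM. Of 61 ATM coding junctions, 60 had more reads in HepG2 and 1 was equal, and of 13 CHEK2 junctions 9 had more in HepG2, 1 had more in K562 and 3 were equal. HepG2 reads were found on 61 of 61 ATM coding junctions and K562 reads on 44.

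The ATM deficit in K562 was smaller at the start of the messenger. The 5′ leader junction had 24 K562 reads and 27 HepG2 reads. The first 2 coding junctions had 77 K562 reads and 151 HepG2 reads, a ratio of 0.508 (0.381 to 0.672), and the later coding junctions had 130 K562 reads and 827 HepG2 reads, a ratio of 0.156 (0.129 to 0.188). The first 2 junctions thus held 37.2% of the ATM coding reads in K562 and 15.4% in HepG2, as the plot of reads along each messenger shows.

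**Figure D3:**
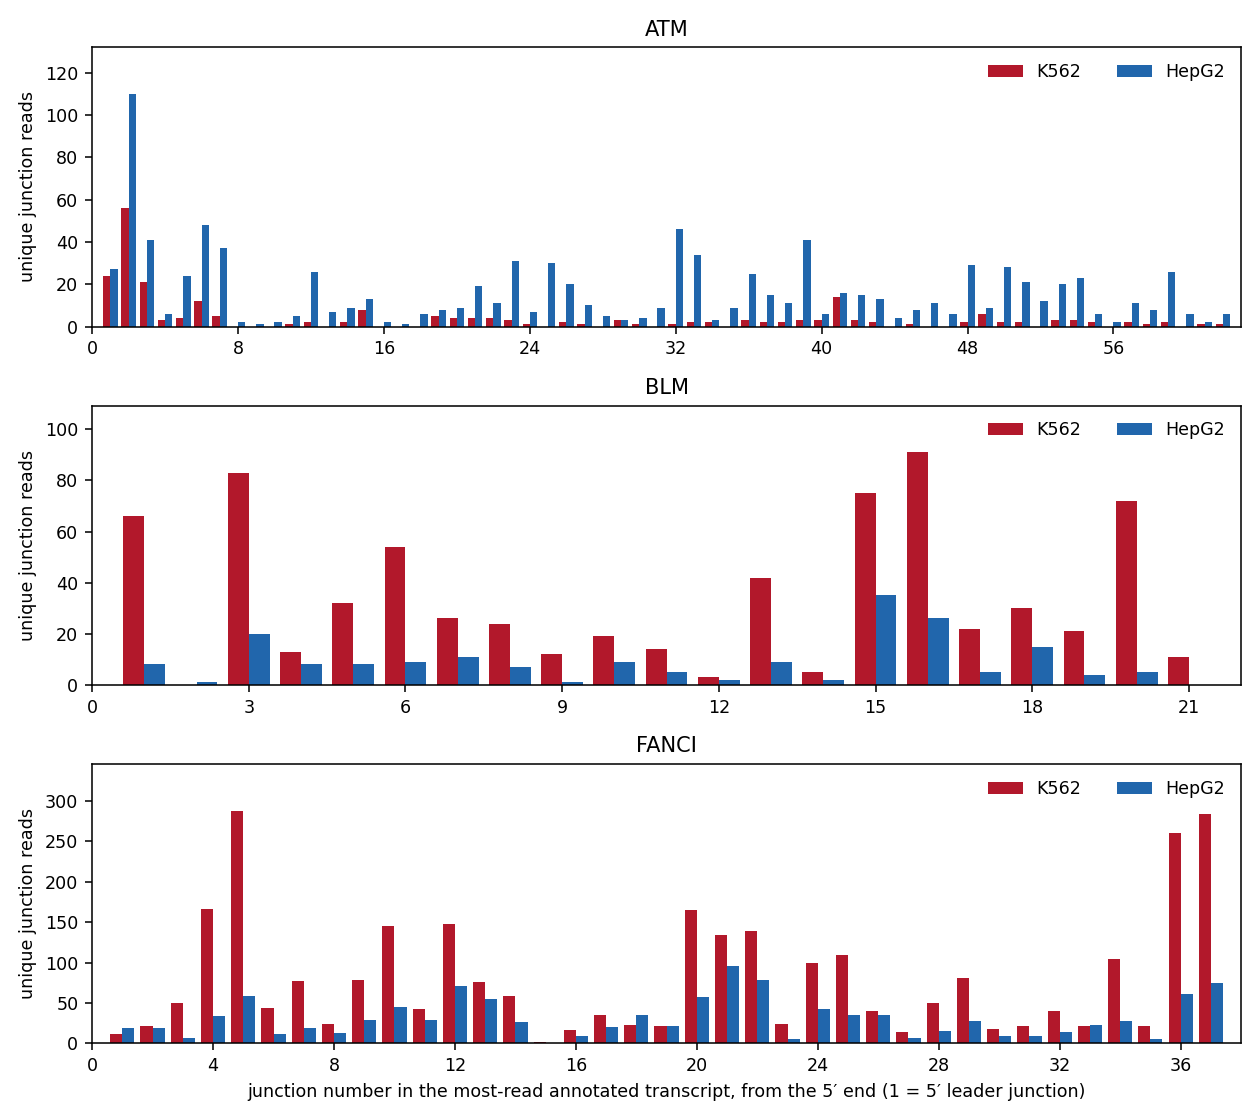
Unique reads (y axis) at each junction of the most-read annotated transcript, numbered from the 5′ end (x axis), for ATM, BLM and FANCI, with K562 in red left of HepG2 in blue. ATM reads in K562 are highest at the first junctions and few after them, while BLM and FANCI have more K562 reads at most junctions along the messenger.

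This comparison by position was added after the data were seen and was applied to every gene with enough reads. The log2 ratio at the first 2 coding junctions minus that at the later ones was 1.70 for ATM, at percentile 97.7 of 4378 genes. The median was 0.19 over those genes, with 61.4% above 0 and 13.1% above 1, so K562 had relatively more reads at the 5′ end in genes at large. Of 23 members with enough reads, 18 (78.3%) lay above 0 and 4 (17.4%) above 1, with a median of 0.28. The other members above 1 were ATR at 1.45, MRE11 at 1.40 and FANCA at 1.18.

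These 3 genes were named for a log2 difference above 1, so a higher ratio at the first 2 coding junctions follows from the choice. MRE11 had 274 K562 reads and 102 HepG2 reads at its first 2 coding junctions, a ratio of 2.67 (2.12 to 3.39), and 753 K562 reads and 740 HepG2 reads at later ones, a ratio of 1.01 (0.914 to 1.12). FANCA had 43 K562 reads and 21 HepG2 reads at the first 2, a ratio of 2.04 (1.18 to 3.62), and one of 0.901 (0.792 to 1.02) at later junctions. ATR had 21 K562 reads and 11 HepG2 reads at the first 2, a ratio of 1.90 (0.876 to 4.36), and one of 0.693 (0.587 to 0.818) at later junctions. The intervals of the early and later ratios do not overlap in MRE11, FANCA or ATR. They rest on the same counts that picked these genes and add no separate support. FANCL and FANCD2, with smaller log2 differences of 0.967 and 0.750, also had early and later intervals that do not overlap.

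**Figure D4:**
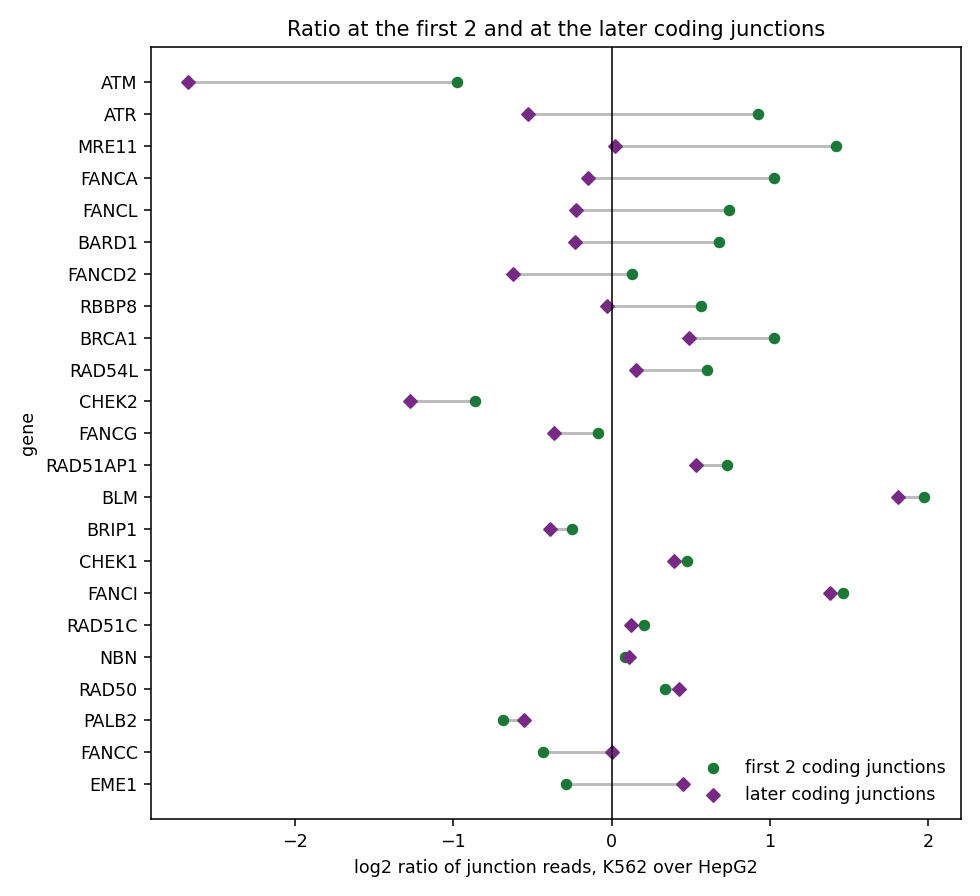
Log2 ratio of reads, K562 over HepG2 (x axis), at the first 2 coding junctions (green circles) and at the later coding junctions (purple diamonds) of the 23 members with enough reads, ordered by the difference. ATM has the widest gap, with the first 2 junctions at -0.98 and the later ones at -2.68.

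Genes next to ATM did not share its low ratio. Among the 10 nearest measured genes, 5 on each side, ratios ran between 0.710 and 14.4 with a median of 1.61, and 9 lay above 1. NPAT, which starts beside ATM and is read from the opposite strand, had 194 K562 reads and 192 HepG2 reads, a ratio of 1.01. The 10 neighbours of FANCI had a median ratio of 0.946 (range 0.00198 to 24.2), with 5 above 1 and 5 below. Those of BLM had a median of 1.30 (range 0.0229 to 6.3), with 7 above 1 and 3 below. The measured genes on either side of FANCI, ABHD2 and POLG, had ratios of 3.12 and 1.30. Beside BLM, CRTC3 and FURIN had ratios of 2.10 and 3.94. The median log2 ratio over chromosome 15, which holds both members, was 0.09. The number of gene copies in each line was not measured.

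All 4 genes of the resolution group lay above 1. BLM (ENSG00000197299, chromosome 15, 90717327 to 90816165), the helicase that dissolves joined recombination intermediates, had 715 K562 reads and 190 HepG2 reads, a ratio of 3.75 (3.19 to 4.42). Of 20 BLM coding junctions, 19 had more reads in K562 and 1 had more in HepG2. Its ratio was 3.93 (2.41 to 6.69) at the first 2 coding junctions and 3.50 (2.93 to 4.20) at the later ones, intervals that overlap.

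The remaining 3 of the group were sparsely read. SLX4, the scaffold that holds the resolving nucleases, had 67 K562 reads and 20 HepG2 reads, a ratio of 3.33 (1.998 to 5.80), which falls just outside the rule. Of these SLX4 reads, 25 in K562 and 2 in HepG2 lay at 5′ leader junctions. Its coding junctions held 42 K562 reads and 18 HepG2 reads. MUS81, a nuclease, had 84 K562 reads and 32 HepG2 reads, a ratio of 2.61 (1.72 to 4.06). Its partner EME1 had 92 K562 reads and 69 HepG2 reads, a ratio of 1.33 (0.961 to 1.84). The intervals of these partners overlap, and MUS81 stood at 0.478 times the EME1 level per junction in K562 and 0.223 times in HepG2. The group had the highest median log2 ratio of the roles, 1.56.

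Levels of different members were compared as mean unique reads per coding junction per 1000000 effective reads, since a junction window has the same width in every gene. The 34 members spanned 0.388 to 30.8 in K562, with a median of 1.71, and 0.167 to 18.8 in HepG2, with a median of 1.54. UBE2T was highest, at 30.8 in K562 and 18.8 in HepG2. RAD51AP1 reached 14.2 in K562 and 9.33 in HepG2, CHEK1 13.2 in K562 and 9.87 in HepG2, and RAD51C 10.5 in K562 and 9.38 in HepG2. The RAD51AP1 level was taken over its most-read annotated transcript, the form with the inner site and without exon 8. The levels of RAD54B and RAD51D include coding junctions that another gene shares, which the read totals leave out. At the low end, SLX4 had 0.388 in K562 and 0.167 in HepG2, and MUS81 had 0.656 in K562 and 0.249 in HepG2.

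Genes that work together sat at close levels in some pairs and far apart in others. RAD50 stood at 1.39 times the MRE11 level per junction in K562 and 1.26 times in HepG2. BRCA1 stood at 1.47 times the BARD1 level in K562 and 1.08 times in HepG2. FANCL was read 6.31 times as often per junction as FANCA in K562 and 6.25 times in HepG2. CHEK1 stood at 18.9 times the ATR level in K562 and 10.3 times in HepG2, whereas BRCA2 stood at 0.382 of the PALB2 level in K562 and 0.568 in HepG2. The largest shift in rank was that of ATM, number 32 of 34 members in K562 and number 14 in HepG2, and BLM moved the other way, number 10 in K562 and number 25 in HepG2.

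**Figure D5:**
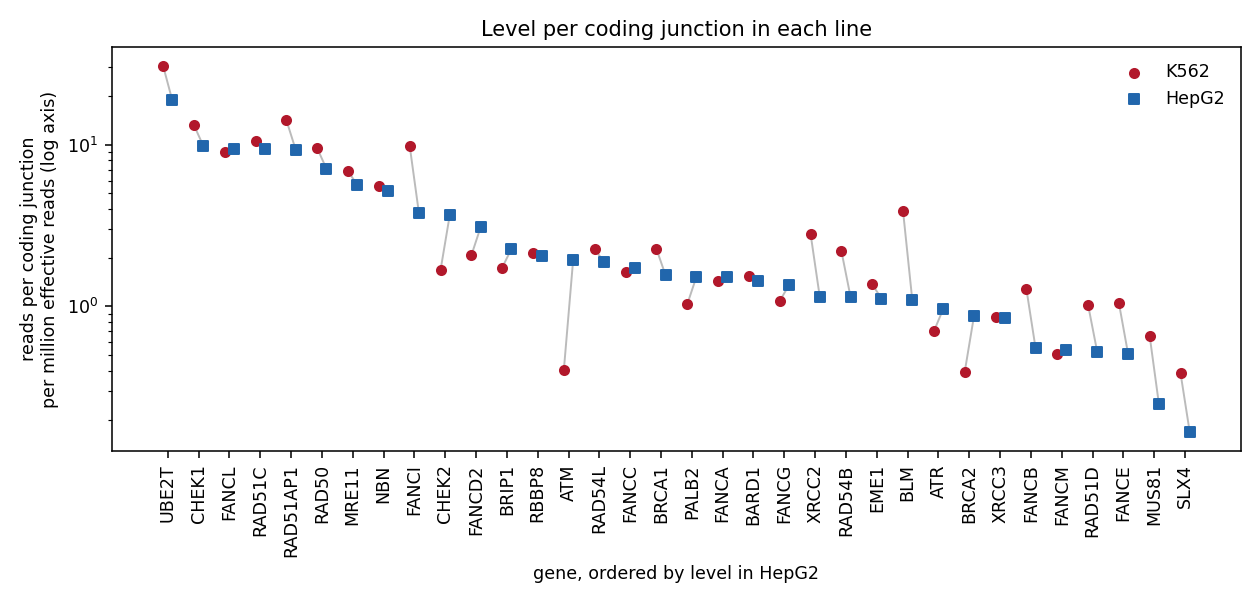
Mean unique reads per coding junction per 1000000 effective reads (log y axis) for each of the 34 members, ordered by HepG2 level (x axis), with K562 as red circles left of HepG2 as blue squares. UBE2T is highest in both lines, and ATM, low in K562, and BLM, high in K562, show the widest gaps between lines.

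Leader junctions took a larger share of member reads in K562. Junctions within 5′ untranslated regions held 2.80% of member reads in K562 (2.56 to 3.06%) and 1.62% in HepG2 (1.42 to 1.84%), below the shares over all genes, 6.47% in K562 and 3.29% in HepG2. BRIP1 had 54 of 315 K562 reads there (17.1%) and 31 of 370 HepG2 reads (8.38%). CHEK2 had 32 of 229 K562 reads (14.0%) and 19 of 429 HepG2 reads (4.43%) at them, and BRCA1 had 45 of 458 K562 reads (9.83%) and 13 of 297 HepG2 reads (4.38%). Of the 34 members, 17 had a larger leader share in K562, 13 had equal shares, and RAD54L, CHEK1, XRCC3 and FANCI had a smaller one in K562. FANCI, the most-read of them, had 54 of 3012 unique K562 reads (1.79%) and 31 of 1164 unique HepG2 reads (2.66%) there. XRCC3 had 13 of 56 K562 reads (23.2%) and 22 of 64 HepG2 reads (34.4%), and in both genes the intervals overlap. With all mapped reads, the FANCI leader acceptor alone held 601 of 3772 K562 reads and 171 of 1374 HepG2 reads. The smaller FANCI share in K562 was therefore seen only with unique reads.

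Of 950 junctions listed for members, 670 were read in K562 and 672 in HepG2, 609 of them in both. Junctions found in no protein-coding transcript took 108 reads in K562 (0.620%, 0.509 to 0.748%) and 55 in HepG2 (0.387%, 0.292 to 0.504%). Over all protein-coding genes these shares were 0.572% in K562 and 0.260% in HepG2.

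The other genes of these repair routes were read against the same rule. Of 62 such genes, 58 could be compared, 10 were higher in K562, beside 16.8% of all genes, and none (0) in HepG2, beside 21.9%. Their median log2 ratio was 0.33. RPA2, a subunit of the protein that coats single-stranded DNA, had 6146 K562 reads and 826 HepG2 reads, a ratio of 7.41 (6.89 to 7.97), while its partners RPA1, at 0.873, and RPA3, at 1.23, lay near 1. EXO1, which extends trimmed ends, had 521 K562 reads and 116 HepG2 reads, a ratio of 4.47 (3.65 to 5.52).

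Of the other 8 counted genes, RAD1, MAD2L2, ABRAXAS1 and BABAM1 belong to complexes with subunits that were not counted. RAD1, of the checkpoint clamp, had a ratio of 3.61, and the clamp subunits RAD9A, at 0.859, and HUS1, at 0.802, were not counted. The helicase WRN stood at 3.07, the ATR adaptor CLSPN at 2.77, and FIGNL1, an ATPase of recombination, at 3.33. RFWD3, a ligase of the Fanconi pathway, stood at 2.40. MAD2L2, of the translesion polymerase, stood at 2.68, while REV3L, the catalytic subunit it binds, was at 0.378 (0.274 to 0.516) and REV1 at 0.561, neither counted. In the BRCA1-A complex, ABRAXAS1 stood at 2.66 and BABAM1 at 2.89, while UIMC1 at 1.45, BABAM2 at 0.820 and BRCC3 at 0.708 were not counted.

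The comparison lists of DNA replication, mitosis and end joining genes had medians on the same side. Of 20 DNA replication genes compared, 4 were higher in K562 and 1 in HepG2, around a median of 0.34 on the log2 scale. CDC45, of the replicative helicase, had 2820 K562 reads and 383 HepG2 reads, POLE, a leading-strand polymerase, stood at a ratio of 3.10, and PCNA, the sliding clamp, had 4989 K562 reads and 13384 HepG2 reads. Of 13 mitosis genes, CDK1 at a ratio of 2.74, BUB1 at 2.54 and CENPE at 2.38 were the 3 higher in K562 and none (0) was in HepG2, with a median of 0.17. Of 9 end joining genes 1, XRCC4, was higher in K562, with a median of 0.68. On the K562 side the rule thus counted 4 of 20, 3 of 13 and 1 of 9 genes of these lists, beside 16.8% of all genes. On the HepG2 side it counted 1 of 20, 0 of 13 and 0 of 9, beside 21.9% of all genes. The difference between these lists and the members was not tested.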

How the data were processed

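Ribosome footprints of 4 samples were compared as 1 table per cell line. The deposited values are raw counts for each annotated junction, once for every mapped read and once for reads with a unique place, per the file headers. The submitters' processing notes name cutadapt, Bowtie2, STAR 2.6.0 and GRCh38. Neither the counting program nor its annotation release is named there. The samples of a line cannot be separated, so no test across samples was run. Signal tracks are not analysed here.

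Junctions were matched to introns of GENCODE release 29, and 99.8% of 350863 matched. Unique reads were summed per gene, leaving out 6033 junctions that several genes share, and a gene needed 20 reads in all. Effective depths used TMM factors from edgeR 4.0.16, and DESeq2 1.42.0 size factors served as an alternative. Ratios and shares have exact Clopper-Pearson 95% intervals (SciPy 1.17.1). The reads carry no molecular identifiers and may repeat a molecule, so these intervals cover counting error only. They compare the tables as deposited and carry nothing on variation between cultures. Where a table had 0 reads, 3 counts stood in as the floor. Coding was given precedence where transcripts disagreed on the class of a junction.

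All members were named. Of the other pathway genes, those past the rule were named, and a few subunits beside them were chosen after their values were seen, as were the CHEK1 and RAD51C skips, the neighbours and the comparison by position. The members, the lists and the rules were chosen with earlier results of these data known. The scripts were tested on simulated data. Some genes of the lists are not reported here.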

Additional observations from a re-analysis of the deposited data

Results flagged for a closer look

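Reads at junctions assigned to more than 1 gene stand outside the ratios of gene reads, and 2 members have many of them. RAD54B had 212 such reads in K562 and 107 in HepG2 over 11 junctions, a ratio of 1.97 (1.56 to 2.51), against the ratio of 2.75 from its own junctions. RAD51D had 63 such reads in K562 and 30 in HepG2 over 8 junctions, a ratio of 2.09 (1.33 to 3.35), close to the 2.06 from its own junctions. For both genes these reads outnumber those used in the comparison, and the gene they came from cannot be told from the tables.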

How the results depend on the processing

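FANCI, BLM and ATM kept their calls under all 10 alternatives for gene reads. Scaling by total reads shifted all genes together, to a median of 0.41 on the log2 scale. The members higher in K562 then numbered 7, adding FANCB, UBE2T, RAD54B, SLX4 and MUS81, with a median of 0.66, beside 24.2% of all genes on that side. The other pathway genes numbered 17, with a median of 0.75. With all mapped reads, 1 other pathway gene (REV3L) was higher in HepG2 and that median was 0.22. The member median was 0.13 with a minimum of 100 reads, and 0.13 without the most-read junction of each gene. SLX4 was also counted when shared junctions were added and when only junctions read in both tables were used. A rule on the ratio alone, added after the data were seen, counted 9 of 34 members higher in K562, beside 22.8% of all genes. On the HepG2 side that rule counted ATM alone, beside 26.9% of all genes. Member junctions past the share rule numbered 8 with all mapped reads, where FANCI no longer passed and 2 CHEK2 junctions into one acceptor did, at 53.6% in K562 and 81.0% in HepG2 and at 34.8% in K562 and 11.9% in HepG2. They numbered 0 with a minimum of 50 reads at the site, where the RAD51AP1 and FANCL sites are too shallow, and 3 with 99% intervals, 2 of them in RAD51AP1 and 1 in FANCI. With a limit of 30 percentage points the FANCL site did not pass. The 5′ leader share of members was 5.56% in K562 and 2.53% in HepG2 with all mapped reads, and 5.03% in K562 and 4.34% in HepG2 when untranslated classes had precedence. Between unique and all mapped reads, member leader reads went from 488 to 1069 in K562 and from 230 to 391 in HepG2. Reads at the FANCI leader acceptor alone went from 55 to 601 in K562 and from 30 to 171 in HepG2, so most of the added leader reads lay there. The cause of these shifts was not tested beyond what each setting changes. No paired analysis was possible because each table pools both samples of a line, and for the same reason no sample could be left out. Depth limits the genes under about 100 reads most, since their intervals span more than 2-fold.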
